A study of Mus musculus with 11 samples.

Results

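Hepatocyte identity rests on a small network of transcription factors, and 9 of its genes are described here across 11 mouse livers. The members are the rows of the deposited count table with the symbols *Hnf4a*, *Foxa1*, *Foxa2*, *Foxa3*, *Cebpa*, *Cebpb*, *Onecut1*, *Prox1* and *Nr5a2*, which are 9 of 13669 genes. All 9 also passed the filter on low counts that left 13334 genes for testing. The mice were wild-type male C57BL/6J animals on regular chow, obtained at 6 weeks of age and acclimated for 4 weeks. Each received 5e11 genome copies of a recombinant adeno-associated virus of serotype rAAV8 by the tail vein, in which the liver-specific promoter LP1 drives the insert. In 6 animals (AAV-TuD) the insert was a tough decoy (TuD), an RNA with binding sites that capture miR-379 and miR-541, and in 5 animals (AAV-NC) it was a negative control sequence. All groups therefore carry a virus and none was left without one. The study's TuD experiments lasted from 4 weeks to 3 months after the virus and ended with a fast of 5 to 6 h, and which of these times applies to which mouse is not stated. Each library is the liver of 1 mouse, numbered as in the labels.

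HNF4A is a nuclear receptor that holds the mature hepatocyte program together, and it activates genes for apolipoproteins, clotting factors and bile acid enzymes. The FOXA proteins open chromatin at liver enhancers, and the C/EBP proteins drive metabolic and acute phase genes. ONECUT1 (also named HNF6), PROX1 and NR5A2 (LRH-1) act in liver development, in repression of metabolic genes and in bile acid synthesis, and many of these factors bind one another's promoters.

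The libraries had between 8148531 and 12043959 counted reads (median 10007923). Between 8.09% and 38.6% of them, most in AAV-NC 7, belonged to the *Mup* genes, which encode the major urinary proteins. Scaling used TMM factors (edgeR) with a range from 0.667 to 1.24, because such abundant transcripts take reads from all others. Levels are given as CPM, the reads of a gene brought to a common scaled library size. The kit reads each transcript once near its 3′ end, so CPM were also compared between genes. Log2 fold changes are AAV-TuD against AAV-NC with the standard error (SE), and adjusted p values are those of edgeR's quasi-likelihood test, adjusted over all 13334 genes by Benjamini-Hochberg, with a threshold of 0.05. Nothing in the labels gives a processing batch.

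Of the 9 factors, *Hnf4a* and *Foxa3* fell with AAV-TuD, none rose, and the other 7 did not pass the test. In all 13334 genes, 11.6% passed, 4.33% as lower and 7.24% as higher. The median log2 fold change of the members was -0.38 against -0.0024 for all genes. In the most abundant of 10 bins of equal size, which holds *Hnf4a*, *Cebpa* and *Prox1*, the median of all genes was -0.13, and in the next bin, which holds *Foxa3* and *Nr5a2*, it was -0.071. With TMM, 8 of 9 members were below 0 (5 of 9 when only library size was used for scaling). Summed over the members, the level was between 634 and 753 CPM in AAV-NC and between 537 and 636 CPM in AAV-TuD, and 5 of 6 AAV-TuD livers were below every AAV-NC liver. No member had fully separate groups. The share in all genes was 7.39%, so finding none among 9 does not set the members apart.

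**Figure D1:**
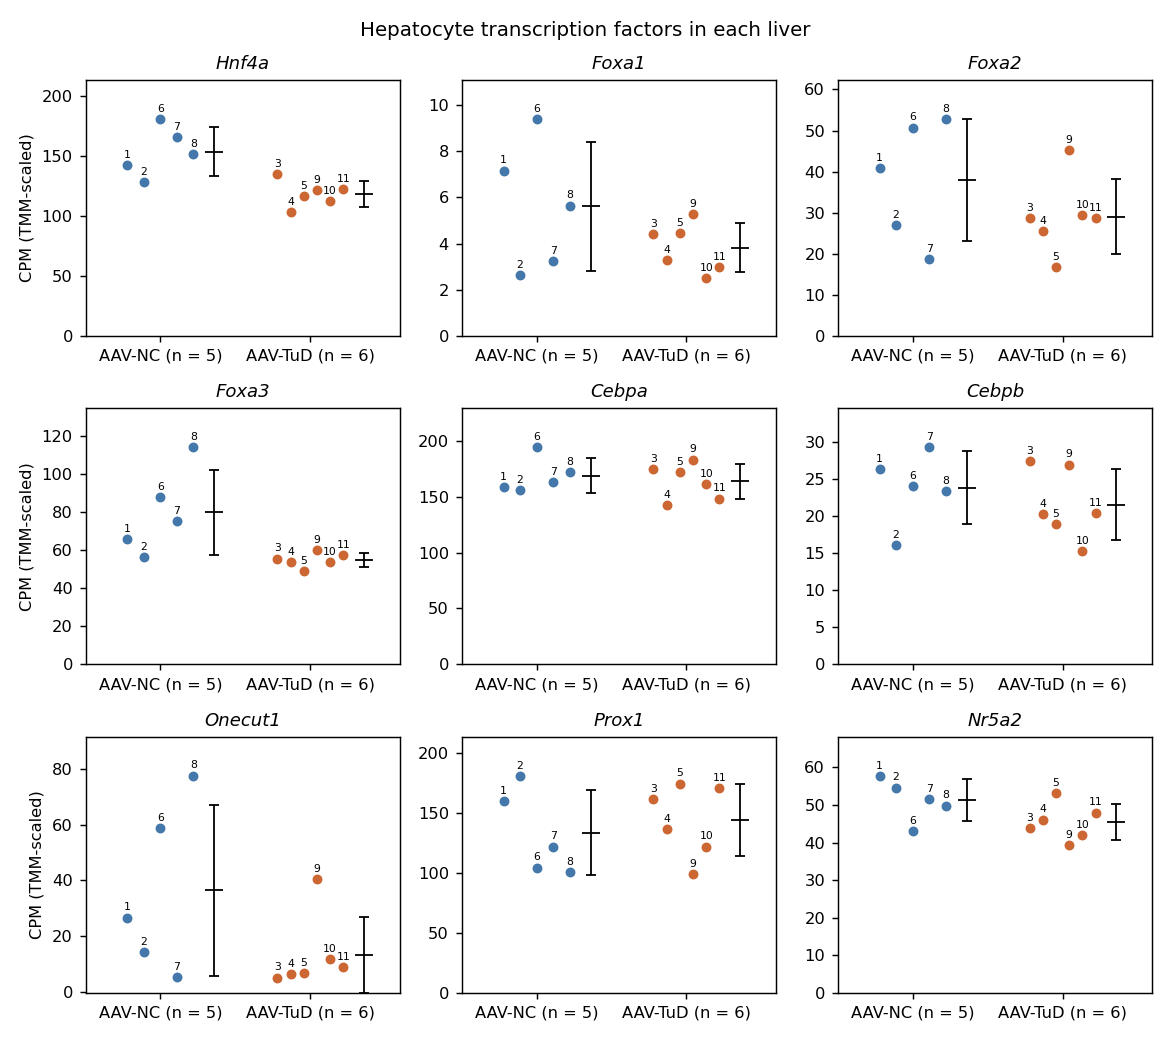
Level of each of the 9 factors in CPM (TMM-scaled, linear axis) in the AAV-NC (blue, n = 5) and AAV-TuD (orange, n = 6) livers, each point a liver with its replicate number, and the black bar the mean with the SD. *Hnf4a* and *Foxa3* were lower with AAV-TuD with a small overlap, *Cebpa* lay in the same range in both groups, and *Onecut1* spread from 5.07 to 77.6 CPM.

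*Hnf4a* stood at 142, 128, 181, 166 and 152 CPM in AAV-NC 1, 2, 6, 7 and 8. In AAV-TuD 3, 4, 5, 9, 10 and 11 it stood at 135, 103, 117, 122, 112 and 123 CPM. Thus 5 of 6 AAV-TuD livers were below the lowest AAV-NC liver, and AAV-TuD 3 overlapped with AAV-NC 2. The mean was 154 ± 20.6 CPM (SD, n = 5) against 119 ± 10.7 CPM (SD, n = 6), a log2 fold change of -0.38 (SE 0.091, edgeR adjusted p = 0.015). The fold was 0.771 with a 95% interval from 0.674 to 0.882, and the exact two-sided permutation test over 462 splits of the livers gave p = 0.0065, where 0.0022 is the smallest it can give. The gene lies at chr2:163506808-163572910 on the plus strand (ENSMUSG00000017950). Its antisense neighbour *Hnf4aos* shares 34913 bases with it and had 5.43 ± 1.86 CPM in AAV-NC and 4.65 ± 1.31 CPM in AAV-TuD (SD), and reads of overlapping genes cannot be told apart unless the strand was used in counting, which the sources used here do not state.

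The promoters of *Hnf4a* and *Foxa2* are shown because they hold the letters of ONECUT factors. Promoter windows of 300 bases, mostly upstream of a RefSeq start, were present for all 9 genes, 14 windows in all. They were searched for short motifs on both strands. The ONECUT letters ATCAAT were in 2 of the 14 windows (7.54% of 32851 promoters). The FOXA letters TGTTTAC were in 1 window, that of *Foxa1* (3.65% of promoters), TGTTTGC in 1 of *Prox1* (5.07%), and the C/EBP letters TTGCNNAA in 1 of *Nr5a2* (10.8%). The STAT5 letters TTCNNNGAA (8.3% of promoters) and the NR5A2 letters CAAGGTCA (1.56%) were in none of the 14. *Hnf4a* has a pair of widely spaced promoters in this annotation. The upstream one, chr2:163506607-163506906 on the plus strand, held an ONECUT match at base 192. The most upstream of 3 *Foxa2* windows, chr2:148046920-148047219 on the minus strand, held an ONECUT match at base 38. The match is in capitals, and each window is written along the strand of its gene.
Hnf4a upstream: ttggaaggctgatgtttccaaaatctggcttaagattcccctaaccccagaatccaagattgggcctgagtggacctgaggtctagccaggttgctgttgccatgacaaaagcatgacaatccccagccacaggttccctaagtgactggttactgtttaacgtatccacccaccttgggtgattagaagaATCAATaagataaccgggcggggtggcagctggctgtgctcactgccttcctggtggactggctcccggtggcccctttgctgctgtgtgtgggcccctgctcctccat
Foxa2 upstream: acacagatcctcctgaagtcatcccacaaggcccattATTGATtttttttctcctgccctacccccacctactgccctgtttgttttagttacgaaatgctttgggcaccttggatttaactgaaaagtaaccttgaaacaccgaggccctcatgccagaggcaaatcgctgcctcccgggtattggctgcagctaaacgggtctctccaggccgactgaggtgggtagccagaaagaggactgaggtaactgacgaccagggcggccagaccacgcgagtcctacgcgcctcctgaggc
The single windows of *Foxa3* and *Onecut1* held none of these letters, which says nothing about binding outside them. Because reads come from the 3′ end of transcripts, the counts cannot tell the *Hnf4a* promoters apart.

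*Foxa3*, the FOXA gene most abundant in these livers, stood at 65.8, 56.1, 87.9, 75.4 and 113.9 CPM in AAV-NC 1, 2, 6, 7 and 8. In AAV-TuD 3, 4, 5, 9, 10 and 11 it stood at 55.5, 53.5, 49.0, 59.9, 53.6 and 57.2 CPM. The AAV-TuD livers lay close together, and 4 of them were below the lowest AAV-NC liver, AAV-NC 2, while AAV-NC 8 was the highest. The mean was 79.8 ± 22.4 CPM (SD, n = 5) against 54.8 ± 3.73 CPM (SD, n = 6), a log2 fold change of -0.54 (SE 0.14, edgeR adjusted p = 0.018) and a fold of 0.686 (95% interval 0.560 to 0.840). The exact permutation p was 0.0065.

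*Foxa1* and *Foxa2*, which act with *Foxa3* at many liver enhancers, had point estimates of the same sign but did not pass the test. *Foxa2* was at 40.9, 26.9, 50.7, 18.7 and 52.9 CPM in AAV-NC and between 16.8 and 45.2 CPM, with a median of 28.6, in AAV-TuD. Its log2 fold change was -0.39 (SE 0.25, edgeR adjusted p = 0.35), and the interval from -0.92 to 0.14 holds both the *Foxa3* value and 0. *Foxa1* was the lowest member, with 7.16, 2.64, 9.41, 3.25 and 5.65 CPM in AAV-NC and between 2.5 and 5.26 CPM in AAV-TuD. With 21 to 85 reads per liver its log2 fold change was -0.57 (SE 0.29, edgeR adjusted p = 0.23). The interval from -1.18 to 0.04 again holds both the *Foxa3* value and 0. Its within-group SD of 0.57 (log2) was higher than that of 96.3% of genes in its abundance bin. The log2 ratio of *Foxa3* to *Foxa2* reads was 1.13 ± 0.52 in AAV-NC and 0.97 ± 0.36 in AAV-TuD (SD), with overlapping livers.

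The C/EBP factors showed no difference that passed the test. *Cebpa*, the most abundant member, was at 158, 156, 194, 163 and 172 CPM in AAV-NC and at 174, 143, 172, 183, 161 and 148 CPM in AAV-TuD. Its mean was 169 ± 15.5 CPM against 163 ± 15.8 CPM (SD), a log2 fold change of -0.05 (SE 0.082, edgeR adjusted p = 0.78). The 95% interval, from -0.22 to 0.13, does not reach the estimate of either called member. *Cebpb*, which is induced in the acute phase response, was at 26.4, 16.1, 24.0, 29.3 and 23.4 CPM in AAV-NC and between 15.3 and 27.4 CPM in AAV-TuD. Its log2 fold change was -0.14 (SE 0.16, edgeR adjusted p = 0.62, interval -0.48 to 0.20). The ratio of *Cebpa* to *Cebpb* reads was 7.18 in AAV-NC and 7.70 in AAV-TuD (geometric means). *Tmem189*, on the opposite strand, shares 908 bases with *Cebpb*.

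*Nr5a2* and *Prox1*, which are both linked to bile acid genes, did not pass the test either. *Nr5a2*, an activator of bile acid synthesis genes, was at 57.8, 54.6, 42.9, 51.6 and 49.8 CPM in AAV-NC and between 39.3 and 53.2 CPM in AAV-TuD, with a log2 fold change of -0.18 (SE 0.092, edgeR adjusted p = 0.24, interval -0.37 to 0.02). *Prox1*, a homeobox factor that represses hepatocyte genes, was at 160, 181, 104, 122 and 101 CPM in AAV-NC. In AAV-TuD it was between 98.7 and 174 CPM, and it was the only member above 0, at 0.11 (SE 0.17, edgeR adjusted p = 0.74, interval -0.25 to 0.46). The lymphatic endothelium also expresses *Prox1*, and of 6 markers of that cell type 3 were in the table, while *Pdpn*, *Mmrn1* and *Ccl21a* were not. The antisense genes *Prox1os* and *Gm28172* had means of 2.20 to 2.61 and 2.39 to 3.36 CPM over the groups, and their log2 fold changes of -0.25 and -0.50 did not pass the test.

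The TuD was built to capture 2 miRNAs, and their sequences are shown with the places in the members' 3′ UTRs that can pair with the seed. The paper reports that it also lowered other miRNAs of the same genomic cluster, and the seeds of those were not searched here. The mature miRNA sequences are those of RefSeq (GRCm38.p6), with the seed, bases 2 to 8, in capitals.
miR-379-5p: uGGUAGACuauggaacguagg
miR-541-5p: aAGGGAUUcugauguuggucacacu
The seeds differ, so the DNA letters that pair with bases 2 to 8 are GTCTACC for miR-379-5p and AATCCCT for miR-541-5p. Within the longest 3′ UTR annotated for each member, GTCTACC occurred in none, while 4.79% of 21020 genes had it. AATCCCT occurred in 2 of the 9, *Cebpa* and *Prox1*, while 8.09% of genes had it. Both stretches are printed with the match in capitals, at base 699 of 1555 in the *Cebpa* 3′ UTR and at base 3939 of 5185 in that of *Prox1*.
Cebpa site: gagggctcctAATCCCTtgctttttgc
Prox1 site: ggacatgaacAATCCCTttgccatgtg
The 3′ UTRs of *Hnf4a* (2819 bases), *Foxa3* (854 bases) and *Onecut1* (2183 bases) held neither run of letters. A match of this kind is a description of the sequence and not a measured site.

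*Onecut1*, which in liver acts upstream of *Foxa2* and of biliary genes, spread more between livers of one group than any other member. It was at 26.6, 14.1, 58.8, 5.13 and 77.6 CPM in AAV-NC 1, 2, 6, 7 and 8. In AAV-TuD 3, 4, 5, 9, 10 and 11 it was at 5.07, 6.29, 6.69, 40.5, 11.8 and 8.89 CPM. AAV-NC 7 was as low as the lowest AAV-TuD livers, and AAV-TuD 9 was above 3 of the 5 AAV-NC livers. The log2 fold change of -1.46 (SE 0.59, interval -2.72 to -0.20) had an edgeR adjusted p of 0.13 and an exact permutation p of 0.13. Among genes of similar abundance (1 of 10 bins of equal size), its within-group SD of 1.31 (log2) was higher than that of 99.9% of genes. Without AAV-TuD 9 the log2 fold change was -2.23 with an edgeR adjusted p of 0.019, so 1 liver decided this call.

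The order of livers by *Onecut1* was shared with some other genes. AAV-NC 8, AAV-NC 6, AAV-TuD 9 and AAV-NC 1 had the 4 highest *Onecut1* levels of the 11 livers, and the same 4 livers had the 4 highest *Foxa2* levels, at 52.9, 50.7, 45.2 and 40.9 CPM. The 3 livers with most *Onecut1* also had the 3 lowest *Prox1* levels, at 101, 104 and 98.7 CPM. They had the 3 highest levels of *Onecut2*, a paralog of *Onecut1*, at 323, 317 and 313 CPM. *Onecut2* itself was at 263 ± 57.3 CPM in AAV-NC and 229 ± 45.2 CPM in AAV-TuD (SD), with a log2 fold change of -0.20 that did not pass the test (edgeR adjusted p = 0.42).

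Genes that respond to growth hormone were also placed in this order, chosen after their values were seen, as was *Onecut2*. *Cish* and *Socs2* are feedback inhibitors induced by STAT5, and *Bcl6* is a repressor that competes with STAT5 at liver genes. The 4 livers with most *Onecut1* had the 4 highest *Cish* levels, at 23.9, 13.6, 14.4 and 9.91 CPM, against at most 5.17 CPM in the other 7. They also had the 4 lowest *Bcl6* levels, at 13.4, 9.52, 7.29 and 27.4 CPM, against at least 31.1 CPM elsewhere. For *Socs2* the 3 livers with most *Onecut1* were the 3 highest, at 63.3, 43.5 and 23.2 CPM, while AAV-NC 1 ranked 7. None of *Cish*, *Socs2* and *Bcl6* passed the test between the groups, with log2 fold changes of -1.19, -1.38 and 0.26 (edgeR adjusted p = 0.33, 0.091 and 0.76). The 4 livers, AAV-NC 1, 6 and 8 and AAV-TuD 9, were not evenly split between the groups. *Foxa3*, a called member, was also highest in AAV-NC 8 and 6 (113.9 and 87.9 CPM) and, within AAV-TuD, in AAV-TuD 9 (59.9 CPM). AAV-NC 7, with little *Onecut1*, was at 75.4 CPM, above AAV-NC 1 at 65.8 CPM. Whether the fall of *Foxa3* is tied to this order was not tested. The collection time of the livers is not given in the sources used here. Whether collection time or hormone pulses have a part in the order was not tested.

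**Figure D2:**
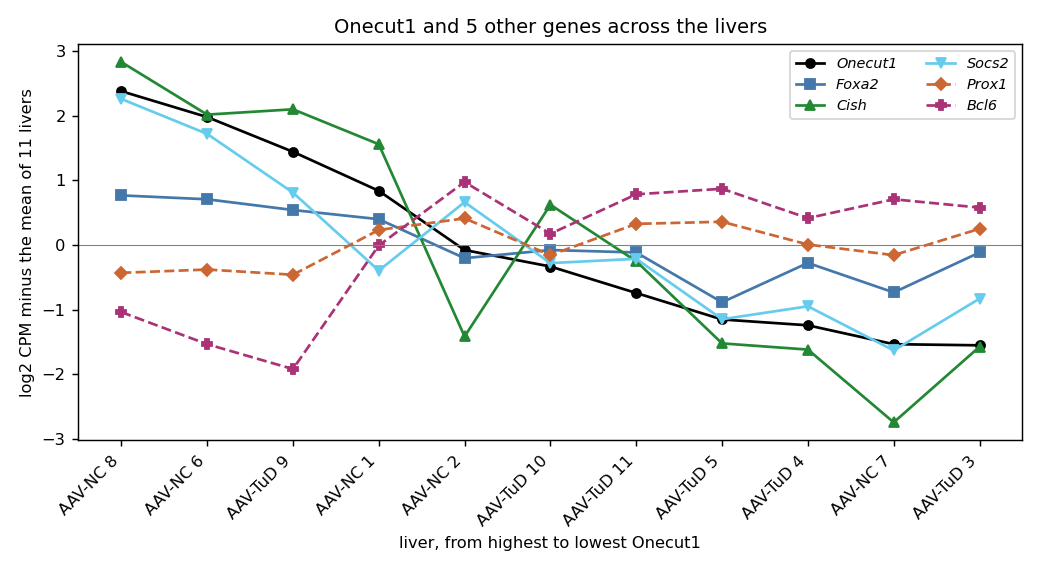
Log2 CPM of 6 genes minus the mean of the 11 livers, with the livers on the horizontal axis ordered from the highest to the lowest *Onecut1* level and lines only joining points of a gene. *Foxa2*, *Cish* and *Socs2* (solid) are highest at the left, where *Bcl6* and *Prox1* (dashed) are lowest.

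The called members were next set against *Cebpa* within each liver, since such a ratio needs no scaling between libraries. *Cebpa* was chosen after its log2 fold change of -0.05 was seen. These ratios thus follow largely from the values above and are no separate support for the falls. The log2 ratio of *Hnf4a* to *Cebpa* reads was -0.15, -0.28, -0.10, 0.03 and -0.18 in AAV-NC 1, 2, 6, 7 and 8. In AAV-TuD 3, 4, 5, 9, 10 and 11 it was -0.37, -0.46, -0.56, -0.59, -0.52 and -0.27. All but AAV-TuD 11 were below the lowest AAV-NC liver. The means, -0.14 ± 0.11 and -0.46 ± 0.12 (SD), differed by -0.32. The ratio of *Foxa3* to *Cebpa* was between -1.47 and -0.60 in AAV-NC and between -1.81 and -1.37 in AAV-TuD, with means of -1.12 ± 0.32 and -1.57 ± 0.16 (SD) and 4 of 6 AAV-TuD livers below every AAV-NC liver. A ratio shows unequal change of its genes and not that *Cebpa* was constant. The log2 ratios of *Hnf4a* to *Nr5a2* and to *Prox1* differed by -0.19 and -0.49 between the group means, with overlapping groups.

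**Figure D3:**
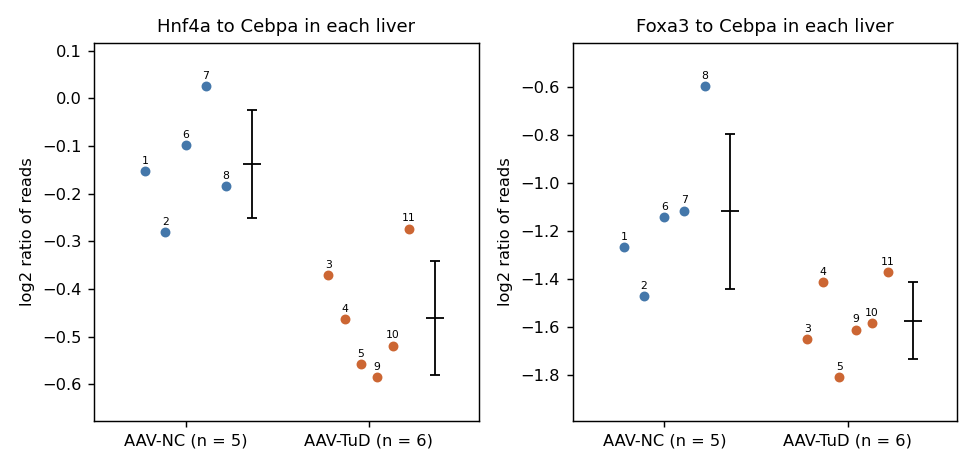
Log2 ratio of *Hnf4a* reads (left) and *Foxa3* reads (right) to *Cebpa* reads in each AAV-NC (blue, n = 5) and AAV-TuD (orange, n = 6) liver, with replicate numbers and the mean with its SD in black. In AAV-TuD, 5 of 6 livers lie below every AAV-NC liver for *Hnf4a* and 4 of 6 for *Foxa3*.

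The scaling of the libraries sets how firmly the falls can be stated. With library size alone, the median over all genes moved to a log2 fold change of 0.23, and *Hnf4a* and *Foxa3* were at -0.15 and -0.32 (edgeR adjusted p = 0.59 and 0.30). Relative to that median they were at -0.38 and -0.55, close to the TMM values. This follows from the scaling, which shifts all genes by nearly the same amount, and is no separate support for the falls. With library size computed without the *Mup* genes the median was 0.16, and the values were -0.22 and -0.39 (adjusted p = 0.12 and 0.078). Both members were called under the 6 other settings tried and with each liver left out in turn, where *Hnf4a* ranged from -0.43 to -0.31 and *Foxa3* from -0.65 to -0.38. *Cebpa*, *Cebpb* and *Nr5a2* turned positive under library size alone (0.17, 0.10 and 0.05), so no direction is given for them.

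**Figure D4:**
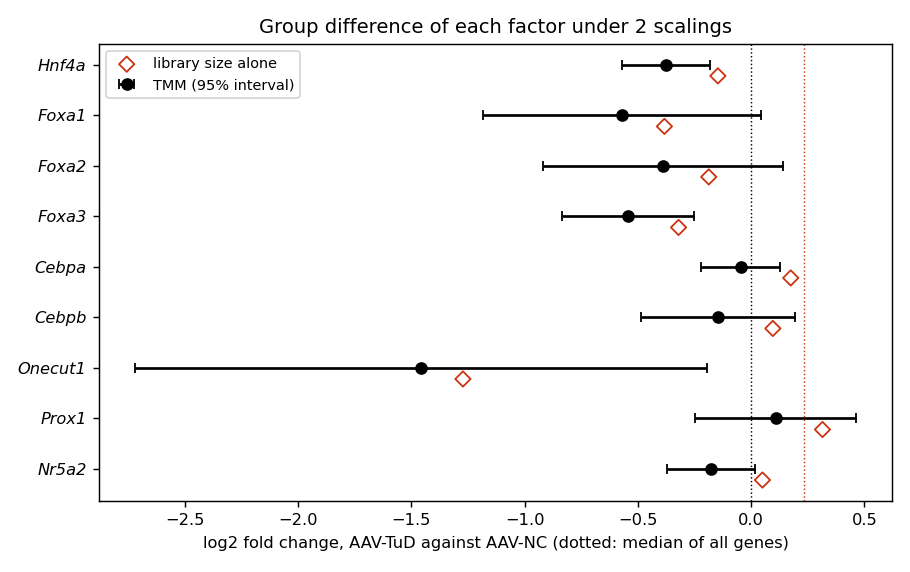
Log2 fold change of each factor, AAV-TuD against AAV-NC, with TMM scaling (black points, bars the 95% interval) and with library size alone (open diamonds). The dotted lines are the medians of all genes, -0.0024 with TMM (black) and 0.23 with library size alone (red), and the diamonds lie to the right of the points by about that distance.

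The order of the factors by mean level in AAV-NC was *Cebpa*, *Hnf4a*, *Prox1*, *Foxa3*, *Nr5a2*, *Foxa2*, *Onecut1*, *Cebpb* and *Foxa1*. Neighbours in this order overlapped in range, except *Cebpb* and *Foxa1*. In AAV-TuD, *Prox1* stood before *Hnf4a* and *Cebpb* before *Onecut1*. There the ranges of *Cebpa* and *Hnf4a* were apart, with 143 CPM as the lowest *Cebpa* value and 135 CPM as the highest of *Hnf4a*.

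Other transcription factors of liver were read from a list of 38, of which 35 were in the table and all 35 were tested, while *Nr2f6*, *Dbp* and *Cux2* were not in the table. Of these, 5 rose and 2 fell with AAV-TuD, beside 7.24% and 4.33% of all genes, and the median was -0.01. *Nr0b2* (SHP), a repressor of bile acid synthesis that is itself a target of NR5A2 and the bile acid receptor, was at 9.79, 8.69, 4.65, 7.51 and 6.03 CPM in AAV-NC and between 10.8 and 22.7 CPM in AAV-TuD. All 6 AAV-TuD livers were above every AAV-NC liver, with a log2 fold change of 1.02 (SE 0.20, edgeR adjusted p = 0.0055). *Thrb*, the main thyroid hormone receptor of liver, was between 40.7 and 44.4 CPM in AAV-NC and between 28.4 and 36.6 CPM in AAV-TuD, again without overlap, with a log2 fold change of -0.38 (SE 0.076, adjusted p = 0.0057). *Mlxipl* (ChREBP), the glucose-responsive activator of lipogenic genes, fell by 0.30 on the log2 scale (edgeR adjusted p = 0.044). The others that rose were *Zbtb20*, a repressor of *Afp*, by 0.39, *Gata6* by 0.40, *Nfia* by 0.31 and *Nr2f2* by 0.27, with edgeR adjusted p values from 0.029 to 0.044. *Nr1h4* (the bile acid receptor FXR) had a log2 fold change of -0.12 and did not pass the test. *Nr0b2* and *Thrb* were called with each liver left out, whereas *Zbtb20*, *Nfia*, *Nr2f2*, *Mlxipl* and *Gata6* were called in 2 to 5 of those 11 fits, and *Thrb* and *Mlxipl* were not called with library size alone.

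Known targets were grouped by the factor that binds them. Of 25 HNF4A targets in the table (27 listed), 5 fell and none rose, beside 4.33% and 7.24% of all genes. Their median was -0.18 and 19 were below 0, while the median of all genes in the most abundant of 10 bins of equal size was -0.13. Those that fell were *F7* (-0.51, edgeR adjusted p = 0.0022) and *F9* (-0.30, 0.035), both vitamin K-dependent clotting factors, *Cyp27a1* (-0.44, 0.0049), a bile acid enzyme, *Apob* (-0.40, 0.015), the core protein of very low density lipoprotein, and *Slc10a1* (-0.59, 0.016), the bile salt uptake carrier. *F7* was at 52.5, 47.0, 50.1, 44.3 and 53.3 CPM in AAV-NC and between 30.2 and 38.3 CPM in AAV-TuD, with no overlap. *Cyp27a1* was between 239 and 309 CPM in AAV-NC and between 181 and 232 CPM in AAV-TuD, also with no overlap. *Apoa1* and *Ttr*, abundant HNF4A targets, had log2 fold changes of -0.20 and 0.09 (edgeR adjusted p = 0.36 and 0.64).

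Of the 9 FOXA targets in the table none passed the test, beside 11.6% of all genes, with a median of -0.06. Of 12 C/EBP targets, *Saa1*, an acute phase protein, rose by 1.77 (edgeR adjusted p = 0.0011) and *F9* fell. Of 10 NR5A2 targets, *Nr0b2* rose, and *Cyp7a1*, the rate-limiting enzyme of bile acid synthesis, had -0.77 (edgeR adjusted p = 0.068). *Cyp7a1* was at 95.6, 141, 134, 116 and 127 CPM in AAV-NC and between 33.6 and 125 CPM in AAV-TuD, where 5 of 6 livers were below every AAV-NC liver. Without AAV-TuD 5, the highest of them, the value was -0.99 and passed (edgeR adjusted p = 0.016). This was the only 1 of the 11 fits with 1 liver left out in which *Cyp7a1* passed. None of 6 ONECUT1 targets passed. *G6pc* and *Apoc2* were not in the table. Over the 46 target genes in the table, 2 rose and 5 fell, beside 7.24% and 4.33% of all genes. These 7 calls do not set the targets apart from the 11.6% of all genes called in either direction. With library size alone 3 rose and 1 fell, and none of the 5 HNF4A targets named above passed (edgeR adjusted p from 0.14 to 0.82). *F9* was called in 4 of the 11 fits that left out 1 liver.

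Of 32 hepatocyte products, all in the table, 7 fell and 1 rose, beside 4.33% and 7.24% of all genes. Their median of -0.15 was close to the -0.13 of all genes in the most abundant of the 10 bins. Their summed level was higher with AAV-TuD, at 71564 to 79394 CPM against 64791 to 71384 CPM in AAV-NC. All 6 AAV-TuD livers were above every AAV-NC liver in this sum, in which *Alb* was the most abundant gene. The mean of *Alb* was 21096 CPM in AAV-NC and 28044 CPM in AAV-TuD, while 24 of the 32 products had a log2 fold change below 0. The sum therefore does not show a rise of the products as a set. The asialoglycoprotein receptor genes *Asgr1* and *Asgr2*, which are classical hepatocyte surface markers, fell by 0.28 and 0.41 on the log2 scale (edgeR adjusted p = 0.022 and 0.0032), with no overlap between groups. *Slco1b2*, an uptake carrier, fell by 0.44 (edgeR adjusted p = 0.036), and *Cyp27a1*, *Apob* and *Slc10a1*, described above, are also among the products that fell. *Fbp1*, a gluconeogenic enzyme, rose by 0.60 (adjusted p = 0.0021). *Alb* was at 17185 to 23301 CPM in AAV-NC and at 25671 to 33283 CPM in AAV-TuD, so all 6 AAV-TuD livers were above every AAV-NC liver, but its log2 fold change of 0.41 had an edgeR adjusted p of 0.081, against 3.3e-04 with DESeq2 and 0.0065 with limma-voom. With library size alone 1 of the 32 rose and 0 fell, so no fall among the products passed, and with library size without *Mup* genes 3 rose and 3 fell. *Slco1b2* was called in 2 of the 11 fits that left out 1 liver.

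**Figure D5:**
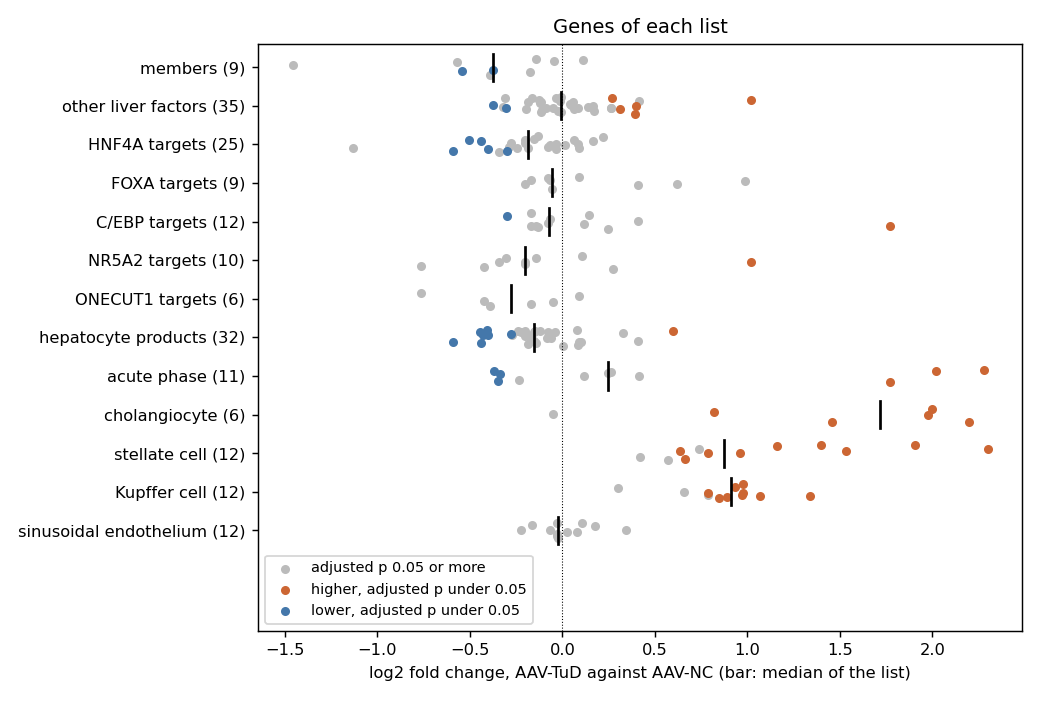
Log2 fold change, AAV-TuD against AAV-NC (TMM), of the genes in 13 lists, with the number of genes tested in parentheses, orange for genes that rose, blue for genes that fell, grey for the others, and a bar at the list's median. HNF4A targets and hepatocyte products have their called genes mostly left of 0, and the stellate, Kupffer and cholangiocyte markers lie right of it.

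Markers of other liver cells were read in the same way, and the cell types differed in their outcome. The counts stand beside 7.24% of all genes that rose and 4.33% that fell. Of 12 stellate cell markers 9 rose and none fell, and their summed level was between 244 and 318 CPM in AAV-NC and between 425 and 577 CPM in AAV-TuD, with *Dcn* the most abundant. Of 12 Kupffer cell markers 9 rose, with sums of 138 to 214 and of 163 to 469 CPM, *Csf1r* being the most abundant. Of 6 cholangiocyte markers tested 5 rose, with sums of 24.5 to 46.3 and of 52.9 to 86.4 CPM, *Sox9* being the most abundant, while *Cftr*, *Cldn4* and *Muc1* were among those not in the table. None of 12 sinusoidal endothelial markers passed the test (sums of 284 to 313 and of 288 to 307 CPM, *Ptprb* the most abundant). Of 12 lymphocyte and neutrophil markers 2 were in the table, and 1 of the 2 rose, with *Ptprc* the most abundant. Of 3 lymphatic endothelial markers 1 rose. In bulk tissue, fewer cells of a type and less RNA per cell cannot be told apart, and the part of these other cells in the fall of *Hnf4a* and *Foxa3* was not tested.

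Of 10 fetal liver genes 5 were in the table and 4 were tested. Among these, *H19*, *Cd24a* and *Sox4* rose by 3.84, 2.14 and 2.25 on the log2 scale (edgeR adjusted p = 0.010, 5.4e-05 and 0.0067), beside 7.24% of all genes. The filter on low counts can be met by the AAV-TuD livers alone. At the low levels in AAV-NC, a gene high with AAV-TuD was thus more likely to be tested, so this count is no support for a rise of the list. *Afp*, the classical fetal hepatocyte protein, had a mean of 1.33 CPM in AAV-NC and 2.02 CPM in AAV-TuD and a log2 fold change of 0.62 (edgeR adjusted p = 0.19). *Cd24a* is also expressed by cholangiocytes, and the summed level of the 4 tested genes was at most 4.53 CPM in AAV-NC and at least 9.56 CPM in AAV-TuD. Of 11 acute phase genes 3 rose, *Saa1*, *Saa2* (2.02) and *Lcn2* (2.28), and 3 fell, *Crp* (-0.34), *Itih3* (-0.35) and *Itih4* (-0.37), beside 7.24% and 4.33% of all genes.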

How the data were processed

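RNA of 11 livers, 5 AAV-NC and 6 AAV-TuD as the sample labels give them, was sequenced with the QuantSeq 3′ mRNA kit from 500 ng RNA. The deposited values are raw counts per gene, which the authors obtained with BBDuk for trimming, STAR 2.5.3a for alignment to GRCm38 and Rsubread for counting (versions from the submitters' processing notes). The annotation, the strand setting and what was done with multi-mapping reads are not given in the sources used here. No column of other samples was used (0 columns).

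A gene entered the tests when at least 5 livers had over 10 reads of it. The main test was edgeR's quasi-likelihood test (edgeR 4.0.16, R 4.3.3), with TMM factors and Benjamini-Hochberg adjustment over all tested genes (threshold 0.05). Single values were also tested by exact two-sided permutation over the 462 splits of the livers. CPM use TMM-scaled library sizes, and log2 ratios of reads a pseudocount of 0.5. Positions are those of GENCODE M21, in which 13658 of 13669 identifiers were found, and sequences those of RefSeq (GRCm38.p6), and motif letters were searched on both strands. No pair of libraries of one group agreed within sampling noise. The labels do not say more of the replicates than a running number, and p values set the group difference against the spread between these livers.

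Alternatives were DESeq2 1.42.0 as the test, edgeR with DESeq2 size factors, with upper-quartile factors, with library size alone or with library size without *Mup* genes, testing of all genes, edgeR's own filter, limma-voom (limma 3.58.1) with quality weights, and omission of each liver in turn. The ratios of *Hnf4a* and *Foxa3* to *Cebpa* were chosen after seeing the data. The members and gene lists were chosen, from general knowledge, with earlier results of these data known. The genes named are the members, up to 8 called genes of the other liver factors, of each target list and of the hepatocyte products, a fixed set of liver genes (among them *Nr1h4*, *Nr0b2*, *Alb*, *Ttr*, *Apoa1*, *Cyp7a1* and *Afp*), and genes that overlap a member. Marker lists are given as counts with their most abundant gene. *Cish*, *Socs2*, *Bcl6*, *Onecut2* and the single genes of the fetal and acute phase lists were named after their values were seen. Some genes and motifs that these rules cover are not reported here.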

Additional observations from a re-analysis of the deposited data

Results flagged for a closer look

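Of 90 groups of livers examined, 4 held a liver far from the others (the gap to the nearest liver as a share of the group's range), and chance gives about 4.5. *Gata6* was highest in AAV-NC 6, with a gap of 0.808 of the range. *Apob* was lowest in AAV-NC 6 with a gap of 0.765. *Alb* was lowest in AAV-NC 7, the liver with most *Mup* reads, with a gap of 0.724, and highest in AAV-TuD 9 with a gap of 0.648. No member of the network was among them.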

How the results depend on the processing

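*Hnf4a* and *Foxa3* stayed below 0 in all 19 alternatives. The number of members called was 0 with library size alone and 0 with library size without *Mup* genes, and 2 to 3 with 1 liver left out, the third being *Onecut1* without AAV-TuD 9 (-2.23). The 13334 tested genes gave 1543 calls, and 1012 to 1829 with 1 liver left out. With library size alone 95.1% of calls were higher, against 62.6% with TMM. Calls among the other liver factors, 7 of 35, were 2 to 6 with 1 liver left out. Calls among the 46 target genes, 7 in the main test, were 4 with library size alone (3 higher, 1 lower), 12 with limma-voom and 6 to 9 with 1 liver left out. Calls among the 32 hepatocyte products, 8 in the main test, were 14 with DESeq2, 1 with library size alone (higher), 13 with limma-voom and 6 to 8 with 1 liver left out. The cause of these shifts was not tested. No paired analysis was possible because the groups share no replicate number. *Foxa1*, with 21 to 85 reads per liver, spread widely between livers, and the part of depth in this was not tested.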
